A study of Mus musculus with 4 samples.

Results

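The genes described here are the interleukins and their receptors, taken as every gene whose symbol in the platform's annotation begins with Il and a digit. The rule found 73 genes among the 18193 genes with a probe set of their own, carried by 115 of 34945 probe sets. By their known roles, 35 encode receptor chains, 32 encode ligands, and 6 encode antagonists, binding proteins or other products. Where a gene had several probe sets, the one brightest on average (mean log2 signal) stood for it. Membership rests on names and no measured value, and the rule leaves out partners with other names, which are described after the members.

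The cells were dendritic cells (DCs), which take up antigen and present it to T cells. They were sorted from spleens of Cx3cr1gfp/+ mice on the C57BL/6 background, in which green fluorescent protein replaces 1 copy of the chemokine receptor gene Cx3cr1. The 4 groups, by title, were CD8+CX3CR1+, CD8+CX3CR1-, CD4+ and DN (DN is the usual abbreviation for cells with neither CD4 nor CD8). All were labelled as not treated with BMP4, and all came from the fraction with high CD11c. Each group was measured on 1 Affymetrix array. There was therefore no replicate error and no test, and each difference describes a pair of arrays. The labels give no age, number of mice or pooling, and the label field for the DC type contradicts the title on the CD8+CX3CR1- and DN arrays, so the titles set the groups.

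Interleukins are secreted signals between immune cells. Most of their receptors pair a chain that recognises a ligand with a chain shared by several receptors, such as gp130 or the common gamma chain, and signal through Janus kinases (JAKs) and STAT transcription factors. Receptors for IL-1, IL-18 and IL-17 signal through other adaptors instead. Spleen DCs both make interleukins, among them IL-12 and IL-15, and respond to them.

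Levels are given as linear MAS5 signal in arbitrary units, and because each probe set has its own response a signal does not show which of several genes is more abundant, also where signals are summed over a marker list. Low signals were raised to a floor of 55.3, the 90th percentile of 130 probe sets of genes for odour, taste and pheromone receptors and for proteins of hair. On single arrays this percentile ran from 46.5 to 62.2, highest on the CD8+CX3CR1- array. A gene that passed the floor on 1 array or more was taken as detected, which 12673 genes were. Where 1 of 2 signals was under it, the difference is a lower bound, written "at least". A difference was called at 4-fold or more.

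The sort markers went with the titles. Cd8a was 2530 and 4742 on the CD8+CX3CR1+ and CD8+CX3CR1- arrays, against 130 in DN DCs and 18.7, under the floor, in CD4+ DCs. Cd4 was 564 on the CD4+ array and at most 93.9 elsewhere. Cx3cr1 was 894 in CD8+CX3CR1+ and 97.3 in CD8+CX3CR1- DCs, with 275 in CD4+ and 258 in DN DCs between them. All 6 DC markers, Itgax among them, were above the floor on the 4 arrays. The ratio of 3' to 5' Gapdh control signal, which rises as RNA integrity falls, was 11.8 on the CD4+ array and 7.56 to 8.98 on the others. The CD4+ array also had 47.9% of its probe sets above the floor, against 41.2% to 42.8%.

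Of the 73 members 40 were detected, or 54.8%, against 69.7% of all genes. These were 21 of 35 receptor chains, 15 of 32 ligands and 4 of the 6 others. The number above the floor was 18 in CD8+CX3CR1+, 23 in CD8+CX3CR1-, 32 in CD4+ and 26 in DN DCs. Detection was thus most frequent on the CD4+ array, where 7 members alone passed, 17.5% of the members detected. Over all detected genes 9.45% lay above the floor on that array alone, and the part of its Gapdh ratio in this was not tested. Of the members, Il18rap (55.8), Il21 (56.5) and Il17rd (56.5) passed the floor most narrowly. Il13ra2 (53.3), Il1rapl2 (52.0) and Il25 (49.7) missed it most narrowly, each by its highest signal.

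Between the highest and the lowest of the 4 arrays, 4 of the 21 detected receptor chains and 0 of the 15 detected ligands were at least 4-fold apart. Among all detected genes 4.66% were. The receptors were Il1r2, Il7r, Il21r and Il6st, and all of them were lowest on the CD8+CX3CR1- array. That array was the lowest for 30.2% of all detected genes. The median range was 1.12 (log2) for the receptors and 0.55 for the ligands, against 0.69 for all detected genes. These values rest on the floor, since 10 of the receptors and 4 of the ligands passed it on all 4 arrays. Over those genes alone the median range was 1.69 for receptors and 0.98 for ligands, against 0.77 for the 7776 genes that passed on all arrays, so there the ligands lay above all genes. The largest ligand ranges were bounds, at least 3.45-fold for Il15 and at least 3.37-fold for Il12b. With the floor at the 75th percentile (35.2) both were called, beside 7 receptors and 5.55% of all detected genes. Whether receptors differ from ligands was not tested. Il6st lay just inside the 4-fold limit (4.21-fold), and Il10rb just outside it (3.70-fold).

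**Figure D1:**
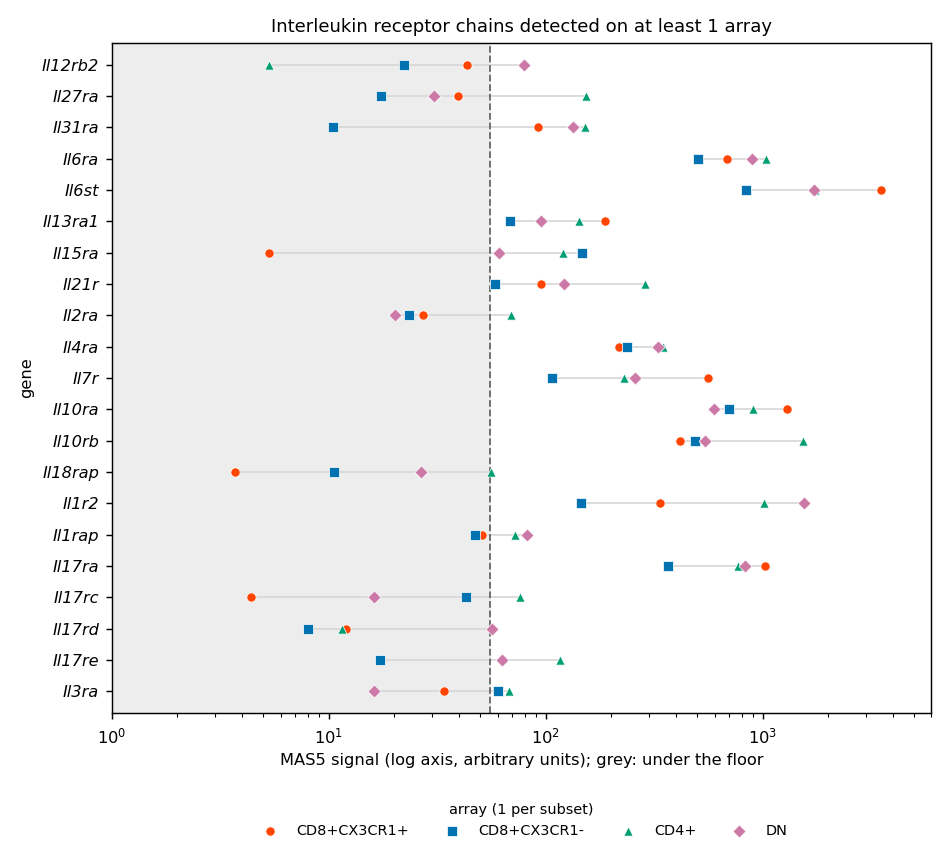
MAS5 signal (log axis) of the 21 receptor chains detected on at least 1 array, with 1 point per array and the grey area under the floor of 55.3. The blue squares of the CD8+CX3CR1- array lie leftmost for Il1r2, Il7r, Il21r, Il6st, Il6ra, Il13ra1 and Il17ra, all of which lay above the floor on every array. Of all genes above the floor on every array, 29.9% were lowest on the CD8+CX3CR1- array.

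The gp130 chain, encoded by Il6st, passes on the signals of IL-6, IL-11 and several related cytokines. Il6st (probe set 1452843_at) had a signal of 3516 in CD8+CX3CR1+, 835 in CD8+CX3CR1-, 1741 in CD4+ and 1732 in DN DCs. The 2 CD8+ arrays thus held the highest and the lowest level, with the CD4+ and DN arrays nearly level between them. The CD8+CX3CR1+ array was 4.21-fold above the CD8+CX3CR1- array, 2.02-fold above the CD4+ array and 2.03-fold above the DN array. A further probe set of Il6st gave 2056, 316, 647 and 726 in the same order of arrays, with the same extremes. On that probe set the log2 difference between the CD8+ arrays was 2.70, against 2.07 on the first. The other two Il6st probe sets were dim, with highest signals of 59.0 and 53.7. Averaging all probe sets brought the log2 difference to 1.92, under 4-fold.

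The partner of gp130 for IL-6, Il6ra, had a narrower range. Its signal was 684 in CD8+CX3CR1+, 506 in CD8+CX3CR1-, 1040 in CD4+ and 895 in DN DCs. The order differed from that of Il6st in that the CD4+ array was highest, 2.06-fold above the CD8+CX3CR1- array. Il31ra, which forms the IL-31 receptor with the oncostatin M receptor, was 91.7, 10.5 (under the floor), 152 and 134 in the same order. Il27ra, the IL-27 receptor chain that pairs with gp130, was detected on the CD4+ array alone, at 154, where it was at least 2.78-fold above the others. Of the IL-12 receptor chains, Il12rb2 reached 79.1 on the DN array alone and Il12rb1 was under the floor on every array.

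Il7r encodes the chain that recognises IL-7 and, with Crlf2, the epithelial cytokine TSLP. Its signal (probe set 1448575_at) was 559 in CD8+CX3CR1+, 107 in CD8+CX3CR1-, 229 in CD4+ and 259 in DN DCs. As for Il6st, the CD8+ arrays were the extremes, 5.23-fold apart. The CD8+CX3CR1+ array was 2.45-fold above the CD4+ array and 2.16-fold above the DN array. The other Il7r probe set was dim, at 68.0 on the CD8+CX3CR1+ array and under the floor on the others. Averaging both probe sets brought the log2 difference between the CD8+ arrays from 2.39 to 1.82, under 4-fold.

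Il1r2 encodes the decoy receptor for IL-1, which binds the cytokine without signalling. Its only probe set (1419532_at) gave 336 in CD8+CX3CR1+, 145 in CD8+CX3CR1-, 1015 in CD4+ and 1550 in DN DCs. Both CD8+ arrays were below both others. The DN array was 10.7-fold above the CD8+CX3CR1- array and 4.61-fold above the CD8+CX3CR1+ array, and the CD4+ array was 6.99-fold and 3.02-fold above them. The CD4+ and DN arrays differed by 1.53-fold, and the CD8+ arrays by 2.32-fold.

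Il21r encodes the chain that recognises IL-21 beside the common gamma chain. Its single probe set (1450456_at) gave 95.4 in CD8+CX3CR1+, 58.5 in CD8+CX3CR1-, 288 in CD4+ and 121 in DN DCs. The CD4+ array was highest, 2.38-fold above the DN array, 3.02-fold above the CD8+CX3CR1+ array and 4.92-fold above the CD8+CX3CR1- array. The lowest of these values lay under the background percentile of its own array (62.2), so the last fold would be smaller, though still past 4-fold, with each array's own percentile as its floor. After scaling the arrays to an equal median it fell under 4-fold, with a log2 difference of -1.95 for the CD8+CX3CR1- array.

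Upstream sequences are shown for these 4 receptor genes because they are the members past 4-fold. Each is the 250 bases before the gene's start in RefSeq (GRCm38.p6), 5′ to 3′ on the gene's strand. RefSeq promoters were matched for 57 of the 73 members. The windows are chr1:40085843-40086092 (plus strand) for Il1r2, chr7:125603179-125603428 (plus) for Il21r, chr13:112463820-112464069 (plus) for Il6st and chr15:9529877-9530126 (minus) for Il7r. Capitals mark matches to the motifs searched.
Il1r2: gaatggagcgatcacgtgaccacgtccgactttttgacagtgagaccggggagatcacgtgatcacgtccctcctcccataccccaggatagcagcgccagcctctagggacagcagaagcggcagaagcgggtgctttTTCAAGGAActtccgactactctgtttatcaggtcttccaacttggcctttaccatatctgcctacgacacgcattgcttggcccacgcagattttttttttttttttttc
Il21r: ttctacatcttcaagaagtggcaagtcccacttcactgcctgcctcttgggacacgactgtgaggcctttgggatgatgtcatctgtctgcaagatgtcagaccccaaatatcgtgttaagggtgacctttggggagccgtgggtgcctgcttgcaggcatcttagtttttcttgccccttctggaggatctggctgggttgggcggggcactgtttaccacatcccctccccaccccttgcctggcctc
Il6st: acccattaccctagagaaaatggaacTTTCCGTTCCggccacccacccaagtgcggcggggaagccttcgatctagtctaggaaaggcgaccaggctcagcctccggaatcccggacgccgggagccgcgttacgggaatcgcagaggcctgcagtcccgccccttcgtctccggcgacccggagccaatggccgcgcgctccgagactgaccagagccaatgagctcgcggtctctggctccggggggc
Il7r: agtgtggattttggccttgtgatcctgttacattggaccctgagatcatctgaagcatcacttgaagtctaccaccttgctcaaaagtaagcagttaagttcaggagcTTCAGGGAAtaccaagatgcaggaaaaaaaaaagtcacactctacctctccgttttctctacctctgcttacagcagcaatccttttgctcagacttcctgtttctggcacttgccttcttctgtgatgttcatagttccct

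On both strands, the STAT half-site pair TTCNNNGAA was matched in Il1r2 and Il7r, as TTCAAGGAA and TTCAGGGAA, beginning 111 and 142 bases before the start. It was present in 7.02% of all 32851 promoter windows of this length. The Ets-IRF composite (GGAA, any 2 bases and GAAA) was matched on the minus strand of Il6st, beginning 224 bases before the start, and in 2.30% of all windows. In none of the 4 windows was there a match to the interferon response element (GAAA, any 2 bases and GAAA) (2.98% of all windows), the AP-1 element TGANTCA (6.75%) or the PU.1-type GAGGAA (23.3%). The same holds for its longer form GAGGAAGT (2.44%), the NF-kB element (7.25%) and TATAAA (12.4%). The longer PU.1-type motif contains the shorter one. The GC content was 66.0% for Il6st, 55.6% for Il21r, 51.2% for Il1r2 and 44.0% for Il7r, against a median of 52.4%. A match describes letters in a window and does not show that a factor binds there.

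None of the other receptor chains of the IL-4 and IL-2 groups among the members was called. The range of Il15ra is a bound (at least 2.66-fold), as is that of Il2ra. The common gamma chain gene, Il2rg, was not among the 73 members and was not analysed here. Il4ra, shared by the receptors for IL-4 and IL-13, was 218 in CD8+CX3CR1+, 236 in CD8+CX3CR1-, 346 in CD4+ and 328 in DN DCs, a range of 1.59-fold. Its partner Il13ra1 was 187, 68.7, 143 and 94.8 in the same order, with CD8+CX3CR1+ DCs 2.72-fold above CD8+CX3CR1- DCs. The 3 further Il13ra1 probe sets above the floor gave the same direction between the CD8+ arrays, with log2 differences of 0.79 to 1.11. Il15ra, which holds IL-15 at the surface of the cell that makes it, did not pass the floor in CD8+CX3CR1+ DCs (5.30). It was 147 in CD8+CX3CR1-, 120 in CD4+ and 60.7 in DN DCs. Il2ra, the alpha chain of the IL-2 receptor, passed the floor on the CD4+ array alone (69.4). The beta chain Il2rb was under it by the probe set used, while its other probe set gave 96.9 on the CD4+ array.

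The IL-10 receptor chains had different orders over the arrays. Il10ra, which binds IL-10, was 1289 in CD8+CX3CR1+, 698 in CD8+CX3CR1-, 899 in CD4+ and 594 in DN DCs. Il10rb, a chain shared with the receptors for IL-22 and lambda interferons, was 417, 489, 1541 and 540 in the same order. By these probe sets the CD8+CX3CR1+ array was the highest for Il10ra and the lowest for Il10rb, and the CD4+ array stood 2.85- to 3.70-fold above the others for Il10rb. On a second Il10rb probe set (187, 171, 301 and 298) the CD4+ and DN arrays were level, so the CD4+ peak rested on 1 probe set, and the lowest array was CD8+CX3CR1-. A dim Il10ra probe set passed the floor in CD4+ DCs alone (93.4), and the third on no array.

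Il17ra, the chain common to the IL-17 receptors, was 1029 in CD8+CX3CR1+, 367 in CD8+CX3CR1-, 771 in CD4+ and 830 in DN DCs. The CD8+CX3CR1- array was the lowest, by 2.10- to 2.80-fold. A second probe set had 170, 183 and 121 on the CD8+CX3CR1+, CD4+ and DN arrays and did not pass the floor in CD8+CX3CR1- DCs (30.9). Among its partner chains Il17re, which binds IL-17C, was 62.7, 117 and 62.9 on the CD8+CX3CR1+, CD4+ and DN arrays and did not pass in CD8+CX3CR1- DCs (17.3). Il17rc (76.4 on the CD4+ array) and Il17rd (56.5 on the DN array) each passed on 1 array, and Il17rb on none.

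In the IL-1 receptor group, the decoy Il1r2 was detected while the signalling receptor Il1r1 was under the floor on every array. Il1rap, the accessory chain of the IL-1 receptor, was 72.1 in CD4+ and 81.9 in DN DCs and passed on neither CD8+ array. Its 4 other probe sets were under the floor throughout. Il18rap, the accessory chain of the IL-18 receptor, was just above the floor on the CD4+ array alone (55.8), and Il18r1, Il1rl2, Il1rapl1 and Il1rapl2 were under it. Il3ra, the alpha chain of the IL-3 receptor, was 60.2 in CD8+CX3CR1- and 67.7 in CD4+ DCs. The other receptor chains under the floor throughout were Il5ra, Il9r, Il12rb1, Il13ra2, Il17rb, Il1r1, Il20ra, Il20rb, Il22ra1 and, by its brighter probe set, Il2rb.

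**Figure D2:**
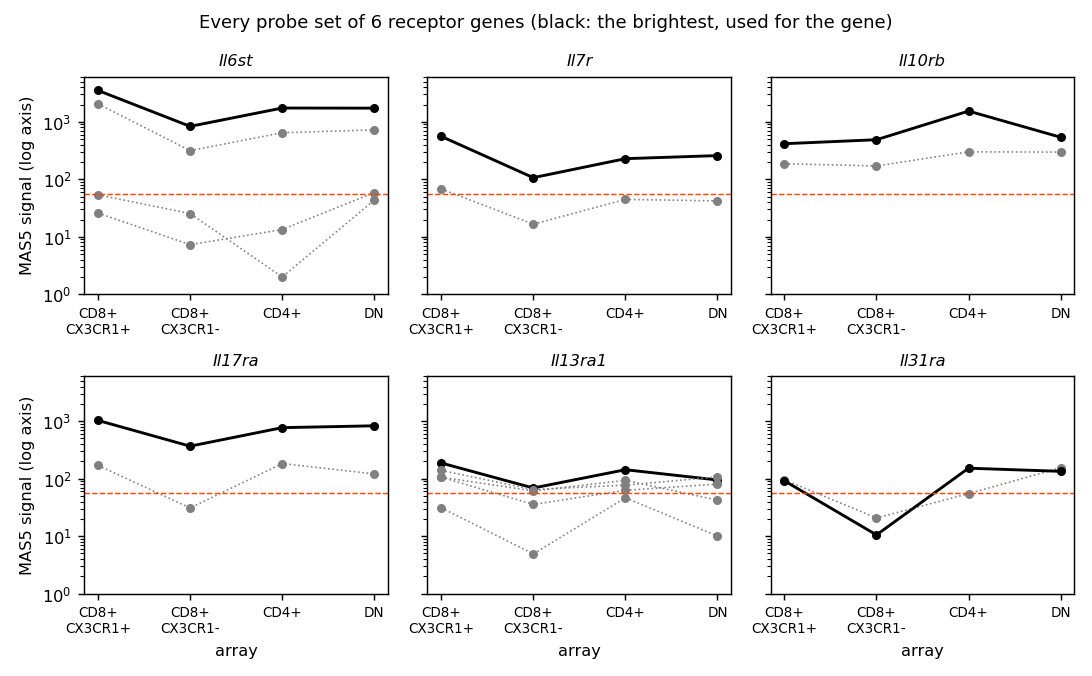
MAS5 signal (log axis) of every probe set of 6 receptor genes on the 4 arrays, the probe set used for the gene in black and the others dotted, with the floor of 55.3 as a dashed line. For Il7r, Il17ra and the 2 bright probe sets of Il6st the lowest point is the CD8+CX3CR1- array, whereas the probe sets of Il10rb and Il31ra part on the CD4+ array.

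Among the ligands, Il1b, the inflammatory cytokine IL-1 beta, was 1740 in CD8+CX3CR1+, 1906 in CD8+CX3CR1-, 3658 in CD4+ and 3797 in DN DCs. The 2 CD8+ arrays were close, as were the other two, and the largest difference was 2.18-fold. Il18, made like IL-1 beta as a precursor that caspase-1 cleaves, was 224, 427, 612 and 372 in the same order. It was lowest on the CD8+CX3CR1+ array, by 2.73-fold against the CD4+ array. Il16, a chemoattractant for cells with CD4, was 1812, 1539, 1696 and 1011, within 1.79-fold, and lowest on the DN array.

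Il12b, the p40 chain of IL-12 and IL-23, and Il15, a survival factor for natural killer and memory CD8 T cells, were highest on the CD8+CX3CR1- array. Il12b had a signal of 186 there and did not pass the floor in CD8+CX3CR1+ (54.5), CD4+ (29.1) or DN (51.2) DCs, which makes it at least 3.37-fold higher. Its second probe set gave 165 on the same array, 70.5 on the CD4+ array and values under the floor on the others. Il15 was 191 in CD8+CX3CR1- and 66.2 in CD4+ DCs, and did not pass the floor in CD8+CX3CR1+ (55.0) or DN (38.9) DCs. It was 2.89-fold above the CD4+ array and at least 3.45-fold above the other two. The CD8+CX3CR1+ value lay just under the floor but above the background percentile of its own array (46.5), whereas Il15ra was far under both. Both parts of the IL-15 pair thus had their highest signal in CD8+CX3CR1- DCs. For Il15ra, by the probe set used, that array was 1.22-fold above the CD4+ array.

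The chains that pair with p40 were not detected. Il12a, the p35 chain, and Il23a, the p19 chain, were under the floor on every array, with highest signals of 25.5 (CD8+CX3CR1- array) and 11.9 (CD4+ array), while Il27 was not analysed here. Il10 and Il6, with highest signals of 36.5 and 19.2, were under the floor as well, as were Il1a (21.5) and Il33 (23.5). Il2, the T cell growth factor, lay just above the floor on all arrays, at 91.0, 70.2, 55.9 and 97.6 on the CD8+CX3CR1+, CD8+CX3CR1-, CD4+ and DN arrays. Its CD4+ value was under the background percentile of that array (58.1). The other ligands under the floor throughout were Il3, Il4, Il5, Il9, Il11, Il13, Il17b, Il17d, Il25, Il31 and Il34.

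The remaining detected ligands were Il1f6, Il1f8, Il1f9, Il1f10, Il7, Il17a, Il20, Il21 and Il24. Each passed the floor on 1 or 2 arrays, and their highest signals ran from 56.5 (Il21) to 127 (Il1f6, on the CD4+ array). Il1f6, Il1f8 and Il1f9 encode cytokines of the IL-36 group, which act mainly at epithelia. Among the other products, Il1rn, the IL-1 receptor antagonist, passed on the DN array alone by the probe set used (124). Il18bp, which captures IL-18, was 68.6 in CD8+CX3CR1+, 62.9 in CD8+CX3CR1- and 65.7 in CD4+ DCs and did not pass the floor in DN DCs (18.8). The amino acid oxidase gene Il4i1 was 82.3, 75.1 and 68.1 in the same order and likewise under the floor in DN DCs (7.20). The antagonist Il1f5 passed on the CD4+ array alone (81.3), and Il22ra2 and the antisense transcript Il1bos on none.

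**Figure D3:**
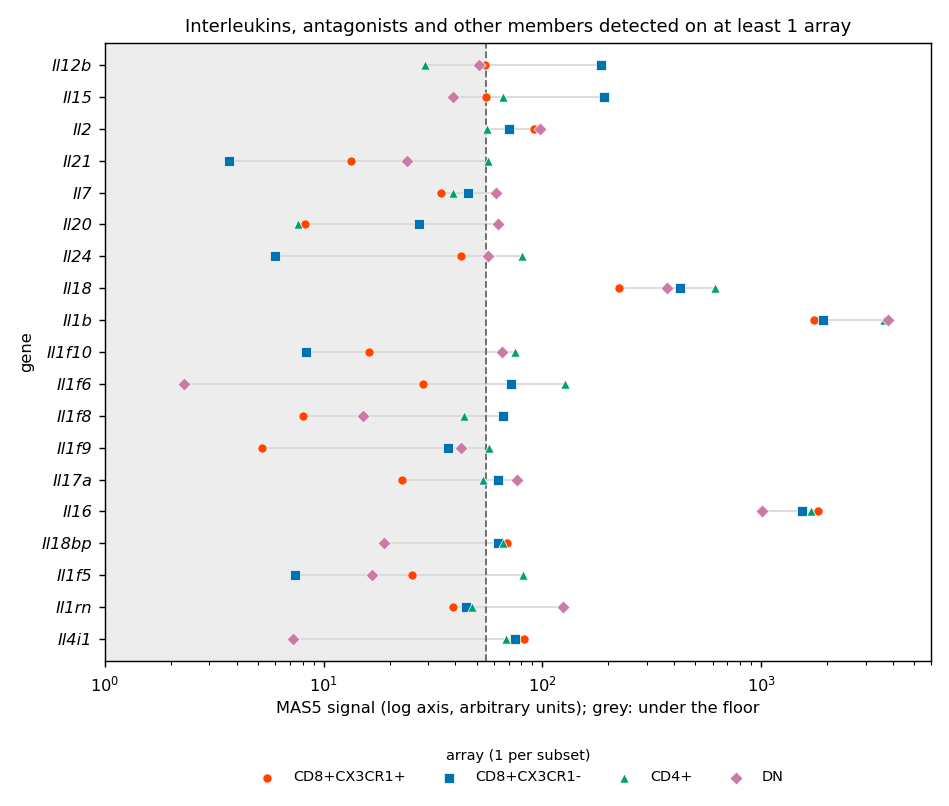
MAS5 signal (log axis) of the 15 ligands and 4 other products detected on at least 1 array, with 1 point per array and the grey area under the floor of 55.3. Il1b, Il16 and Il18 lie above the floor on every array, and Il12b and Il15 stand out on the CD8+CX3CR1- array, at 186 and 191.

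In the comparison of the 2 CD8+ subsets, which asks how far their profiles differ, 2 of 21 detected receptor chains were at least 4-fold apart, Il6st and Il7r. Both were higher on the CD8+CX3CR1+ array. Among all detected genes 2.82% were called in either direction, 1.67% higher and 1.15% lower. Of the 21 receptors 10 were higher on the CD8+CX3CR1+ array and 4 lower, the rest being under the floor on both arrays. None of the 15 ligands was called, with 2 higher and 7 lower. The median difference was 0.00 (log2) for receptors, for ligands and for all detected genes. The middle 50% of all detected genes ran from -0.30 to 0.35.

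Between the CD8+CX3CR1- and CD4+ arrays, 2 of 21 receptors were called, Il1r2 and Il21r, and both were lower on the CD8+CX3CR1- array. The share of all detected genes called was 2.97%, with 1.18% higher and 1.80% lower on the CD8+CX3CR1- array. Here 18 receptors were lower on the CD8+CX3CR1- array and 1, Il15ra, was higher, with a median of -1.04 (log2) against -0.01 for all detected genes. The middle 50% of all detected genes ran from -0.47 to 0.34. Detection counts as part of this, since 4 of the 21 receptors passed the floor on the CD4+ array alone. Of all genes 58.9% passed it on the CD4+ array and 52.2% on the CD8+CX3CR1- array. The differences of Il17rc, Il17re, Il18rap, Il1rap, Il27ra, Il2ra and Il31ra were bounds, with the CD8+CX3CR1- array under the floor. That of Il18rap, counted as lower, was -0.01 (log2). Of the ligands 0 were called, 8 were lower and 5 higher, with a median of -0.03.

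Between the CD4+ and DN arrays 0 receptors and 0 ligands were called, and 0.253% of all detected genes. The receptor median was 0.22 (log2) and the ligand median 0.03. Of the 3 other pairs, CD8+CX3CR1+ against CD4+ had 0 members called (0.773% of detected genes). Il1r2 was the member called in CD8+CX3CR1+ against DN (0.410%) and in CD8+CX3CR1- against DN (2.02%), in both cases higher on the DN array. The 6 pairs share arrays and are not independent of each other.

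**Figure D4:**
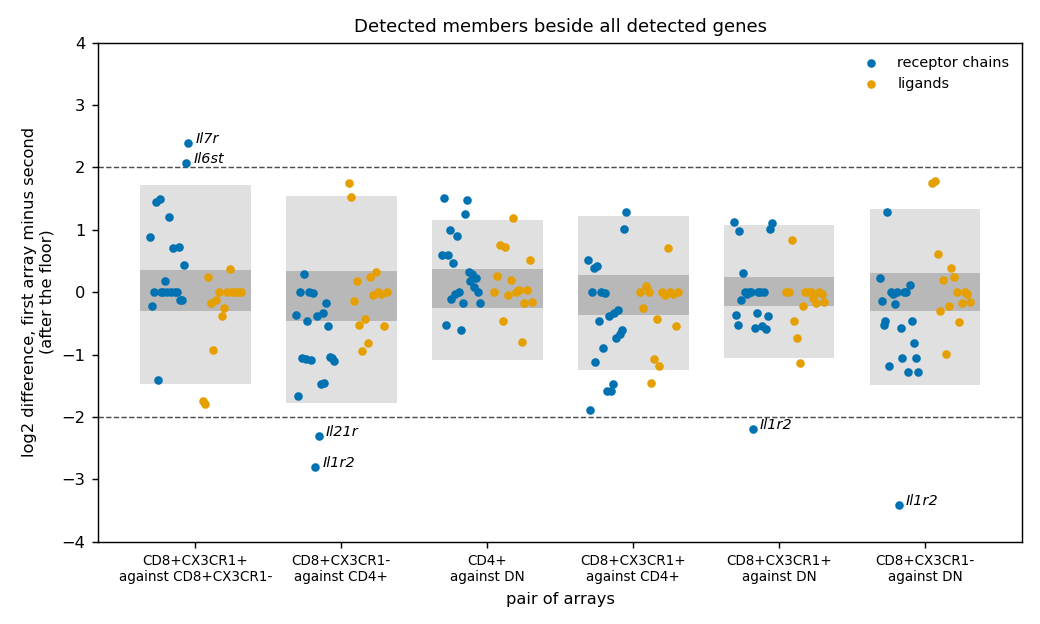
Log2 difference (first array minus second, after the floor) of the detected receptor chains and ligands in the 6 pairs of arrays. Grey bands span the middle 50% (dark) and 95% (light) of all 12673 detected genes, dashed lines mark 4-fold, and the labelled points are Il7r, Il6st, Il21r and Il1r2.

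Of 49 genes of the same pathways with other names, 44 were on the platform and 42 detected. In CD8+CX3CR1+ against CD8+CX3CR1-, 2 of the 42 were at least 4-fold higher and 0 lower, beside 1.67% and 1.15% of all detected genes. In CD8+CX3CR1- against CD4+, 0 were higher and 3 lower, beside 1.18% and 1.80% of all detected genes. In CD4+ against DN 0 were called, beside 0.253%. Stat4, which carries IL-12 signals, was 882 in CD8+CX3CR1+, 593 in CD4+ and 613 in DN DCs. On the CD8+CX3CR1- array it was under the floor (55.1), which makes it at least 10.7-fold lower than each of the others. Stat5a, a mediator of common gamma chain and GM-CSF signals, was 364, 71.0, 253 and 187 on the CD8+CX3CR1+, CD8+CX3CR1-, CD4+ and DN arrays. The difference between the CD8+ arrays was 5.13-fold.

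The 3 genes called lower in CD8+CX3CR1- than in CD4+ DCs were Stat4, Csf3r and Nlrp3. Nlrp3, the inflammasome sensor upstream of caspase-1, was 110 in CD8+CX3CR1+, 25.9 (under the floor) in CD8+CX3CR1-, 330 in CD4+ and 239 in DN DCs. Csf3r, the receptor for G-CSF, was 64.5, 50.9 (under the floor), 300 and 119 in the same order. Others were chosen after their values were seen. Crlf2, the partner of Il7r in the TSLP receptor, was 2837 on the CD8+CX3CR1+ array and 1142 to 1250 on the others, so it was highest on the same array as Il7r. Ebi3, which completes IL-27, was 951, 1969, 2686 and 1373 on the CD8+CX3CR1+, CD8+CX3CR1-, CD4+ and DN arrays. Tyk2, a kinase of the IL-12 receptor, was highest on the CD8+CX3CR1- array, at 1939 against 705 to 1103. Jak2 was lowest on that array, at 2742 against 3584 to 4557.

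**Figure D5:**
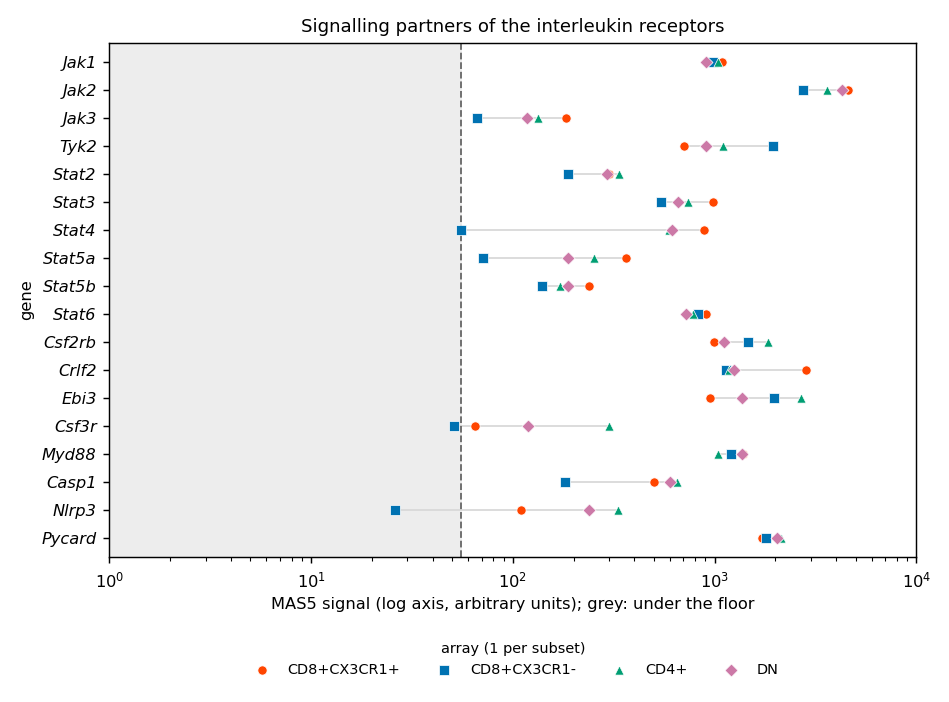
MAS5 signal (log axis) of 18 signalling partners on the 4 arrays, with the grey area under the floor of 55.3. The CD8+CX3CR1- array is lowest for Stat4, Stat5a, Jak3, Casp1 and Nlrp3 and highest for Tyk2.

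Markers of other cells that express these receptors were measured beside them. The 4 monocyte markers on the platform summed to 1159 on the CD8+CX3CR1- array and to 11838 to 16259 on the others, 3 or 4 of 4 being above the floor. The sum was thus lowest on the array on which Il6st, Il7r, Il1r2 and Il21r were lowest. Csf1r (498 on that array, 9142 to 13894 on the others) and Ms4a6c (388 against 2150 to 3476) together made up most of each sum. Ccr2 was lowest in CD4+ DCs (143, against 225 in CD8+CX3CR1- DCs), and Fcgr1 passed the floor in CD4+ DCs alone (68.0). The 6 plasmacytoid DC markers summed to 4986 on the CD8+CX3CR1+ array, where Il6st and Il7r were highest, and to 814 to 1748 on the others, with 4 or 5 of 6 above the floor and Ly6d under it on all. Tcf4 (3489) made up most of the sum of 4986, and Siglech, Bst2, Ccr9 and Klk1 were also highest on that array. Of 5 T cell markers 0 to 2 were above the floor on an array, Cd3g on none and no marker above 70.5, and their sum ran from 62.4 to 171. Of 5 neutrophil markers 0 or 1 passed (sums of 82.1 to 156), with S100a9, Camp, Elane and Mpo under the floor on every array. Of 7 mast cell and basophil markers 1 to 3 passed (sums of 656 to 1014), with Fcer1a, Ms4a2, Cpa3 and Gata2 under the floor throughout. Of 5 B cell markers 2 to 4 passed (sums of 3435 to 5115), with Cd79a under the floor throughout. Among them Cd79b was 593 in CD8+CX3CR1+, 3.10 (under the floor) in CD8+CX3CR1-, 402 in CD4+ and 178 in DN DCs, with the same highest and lowest array as Il6st and Il7r. The other detected B cell markers had other orders. Ms4a1 was highest on the CD8+CX3CR1- array (446 against 163 to 361), and Ighm (4319) and Pax5 (97.1) were highest on the CD4+ array. Of 7 markers of natural killer and innate lymphoid cells 2 to 4 passed (sums of 299 to 619), with Ncr1 and Gata3 under it throughout. Of 7 red pulp macrophage markers 4 to 6 passed, with sums of 897 on the CD8+CX3CR1- array and 2009 to 4052 on the others. Adgre1 (143 against 578 to 3068) made up most of this sum on the CD4+ and DN arrays. Vcam1 was highest on the CD8+CX3CR1- array (513 against 109 to 291) and Hmox1 passed there alone (71.6). The part of these cells in the results was not tested, and in sorted populations a smaller share of expressing cells and less RNA per cell cannot be told apart.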

How the data were processed

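RNA of 4 sorted spleen DC subsets was hybridised to Affymetrix mouse genome arrays, 1 array per subset. The deposited intensity (MAS5 signal) is linear. MAS5 is named in the submitters' processing notes without a version. Each array had a trimmed mean of 150.0 (2% cut from either tail), so a difference in total RNA per cell cannot be seen. The number of arrays limits the precision. No replicate exists, so no test was run.

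Probe sets with 1 gene symbol in the platform annotation were used, and 3 that name a member with another gene were left out. All 73 symbols stood unchanged in the RefSeq gene table of GRCm38.p6. Signals were raised to the floor, log2 differences were taken, and 4-fold (log2 difference of 2) was the call. The counting steps were tested on simulated data. Computation used Python 3.11.15 with pandas 2.3.3 and numpy 2.4.6.

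Values on all 4 arrays were to be given for members past 4-fold, the 6 brightest receptors and ligands, and a list of DC-linked ligands. Il4ra, Il13ra1, Il15ra, Il27ra, Il31ra and the other detected members were added after their values were seen. The members, gene lists and motifs were chosen with earlier results of these data known. The 8 alternatives concerned scaling, the floor and the choice of probe set.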

Additional observations from a re-analysis of the deposited data

How the results depend on the processing

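The call of Il1r2 held under all 8 alternatives in its 3 pairs, but only the changes of scaling could have moved it. Its only probe set lay above every floor tried on all 4 arrays. With probe sets averaged, 0 receptors were called between the CD8+ arrays (Il6st 1.92 and Il7r 1.82, log2), and with an equal median 1 receptor, Il1r2, between the CD8+CX3CR1- and CD4+ arrays. With the floor at the 75th percentile (35.2), 4 receptors (Il1r2, Il21r, Il27ra and Il31ra) and 1 ligand (Il12b) were called in this pair, 1 receptor (Il27ra) between the CD4+ and DN arrays, and 7 receptors and 2 ligands (Il12b and Il15) between the highest and lowest array, beside 3.26%, 0.588% and 5.55% of all detected genes. At this floor more receptors and ligands were detected than the 21 and 15 of the main setting. Without a floor all 35 receptors and 32 ligands counted. Then 10 receptors and 8 ligands were called between the CD8+ arrays, beside 17.5% of all genes. Between the CD8+CX3CR1- and CD4+ arrays 12 and 7 were called (19.9% of all genes), and between the CD4+ and DN arrays 9 and 10 (17.6%). Over the range 24 and 21 were called (41.5%). With the floor at 35.2, Il15ra was also called between the CD8+ arrays, beside 2.96% of all detected genes. Unlike Il6st and Il7r it was lower on the CD8+CX3CR1+ array (5.30, under that floor, against 147). Other counts stayed close to the values reported. An equal median moved the median of all genes by up to 0.17 (log2) and a floor for each array by up to 0.16. The causes were not tested. No called difference changed sign. No paired analysis was possible because each group has 1 array. The signal over background limits most ligands, which lay near or under the floor.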

Other observations

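Several members had probe sets that gave different orders of the arrays. For Il31ra, the probe set used gave 152 in CD4+ and 134 in DN DCs, while the other gave 54.8, just under the floor, and 155. The CD8+CX3CR1- array was under the floor by both (10.5 and 20.7). For Il15ra, the CD4+ array had 120 by the probe set used and 11.3 by the other, while the CD8+CX3CR1- array had 147 and 117 and was the highest by both. For Il1rn, the probe set used passed the floor on the DN array alone (124), while another gave 143 in CD4+ and 86.5 in DN DCs, and both CD8+ arrays were under the floor by all 3 probe sets. For Il17re, the DN array had 62.9, 75.8 and 90.1 by the 3 probe sets and the CD4+ array had 117, 121 and a value under the floor. For Il6ra, the probe set used was highest on the CD4+ array (1040), while a dim second probe set passed the floor on the CD8+CX3CR1- (83.3) and DN (63.7) arrays alone.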
